A study of Mus musculus with 36 samples.

Results

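Mbp, Mag, Mog, Cnp, Mobp, Sox10, Olig1, Olig2 and Pdgfra are genes of oligodendrocytes and of the precursor cells that give rise to them. They were taken by name from the deposited table of raw counts, in which all 9 were found among 16614 genes. Their levels were read in each of the 36 libraries, and the ribosome-protected fragments (RPFs) of the pellet were set against the RNA-seq libraries and against the RPFs of fraction 5/6, in both genotypes.

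Oligodendrocytes wrap axons in myelin, a stack of membrane that is rich in lipids and in a few proteins. Their precursors carry the receptor encoded by Pdgfra, depend on the transcription factors encoded by Sox10, Olig1 and Olig2, and switch on the myelin genes as they mature. In the brain of a mouse pup most cells of this lineage are precursors or young oligodendrocytes, and most myelin is laid down later. The mRNA of Mbp is known for its transport in RNA granules to the processes of these cells, where it is translated.

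The libraries came from whole brains of C57BL/6 mice (WT) and of FMR1-KO mice (FMR1 KO), with 10 flash-frozen brains of 5-day-old pups in a preparation. Ribosomes were sedimented through sucrose, RPFs were made by nuclease from the pellet and from fraction 5/6, and RNA-seq was done on whole brain homogenate. MgCl2 was at 10 mM in a preparation with the standard amount of nuclease and at 2.5 mM in another with little nuclease, and each was sequenced in 3 libraries per genotype and library type, which gives 12 groups. Because brains were pooled, a p-value here measures the spread between preparations and not between mice, and because whole brains were used, fewer cells of a type cannot be told apart from less RNA per cell.

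The standard RPF libraries held 6765065 to 40174168 counts, of which the single gene Cdk8 took 36.7% to 63.4%, so levels are given as CPM (counts-per-million), for which each count is divided by the library total without Cdk8. The standard RNA-seq libraries held 112249206 to 147216378 counts and are far deeper. In the standard RNA-seq libraries, Fmr1 lay at 60.6 to 71.9 CPM in WT and at 16.4 to 18.1 CPM in FMR1 KO. The library labelled WT fraction 5/6 standard replicate 3 went against its label, with Fmr1 at 3.17 CPM where the other two WT libraries of fraction 5/6 held 100.1 and 68.6 CPM. Across genes it was most like the library labelled FMR1 KO pellet standard replicate 3 (Pearson r = 0.960). Best matches across genotypes were common among standard RPF libraries, such as WT pellet replicate 2 with that same library (0.959). The correlation therefore does not speak to the label, unlike the Fmr1 level. In RNA-seq of the low nuclease preparation, replicate 2 of WT and replicates 2 and 3 of FMR1 KO had 81.5% to 85% of their counts in 10 genes, against 3.66% to 4.10% in the remaining 3. Of the results that rest on these 4 libraries, those on the 9 genes are also given without them where this changes a call or a direction.

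All 9 genes had counts in every library except for Mog, which had 0 counts in the library labelled WT fraction 5/6 standard replicate 3. In the standard RNA-seq libraries the 9 genes summed to 639 to 1134 CPM, and 7 markers of neurons summed to 7319 to 8479 CPM. The 3 markers of Schwann cells, which make myelin outside the brain, summed to 7.78 to 11 CPM there.

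Per length of exon, the order of the levels differed between RNA and RPFs. The length taken was the union of annotated exons, which can exceed that of a single transcript. For Mbp the union has 8469 nt and its transcript with a deposited RPF peak has 2056 nt, so the rank of Mbp depends on this choice. In WT RNA-seq the mean level was highest for Olig1, at 129 ± 11 CPM per kilobase of exon (RPKM; SD, n = 3), followed by Cnp (52.1 RPKM), Olig2 (31.6 RPKM), Mbp (26.4 RPKM), Sox10 (17 RPKM), Mog (4.85 RPKM), Mobp (2.92 RPKM), Pdgfra (2.27 RPKM) and Mag (0.671 RPKM). The libraries of neighbours overlapped for Olig2 and Mbp, Mbp and Sox10, Mog and Mobp, and Mobp and Pdgfra, so these pairs did not differ beyond their spread. In the WT pellet Cnp led with 65.7 ± 7.4 RPKM (SD, n = 3), ahead of Olig1 (16.5 RPKM), Sox10 (9.46 RPKM), Olig2 (9.17 RPKM), Mbp (5.81 RPKM), Pdgfra (1.31 RPKM), Mag (0.580 RPKM), Mobp (0.278 RPKM) and Mog (0.0736 RPKM). Here the libraries overlapped for Olig1 and Sox10, for Sox10 and Olig2, and for each pair of neighbours from Pdgfra down to Mog. Cnp was clear of the next gene in the pellet and in fraction 5/6 of both genotypes, and Olig1 was clear of the next gene in standard RNA-seq of both genotypes, but not in low nuclease RNA-seq, where its libraries overlapped with those of Cnp.

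**Figure D1:**
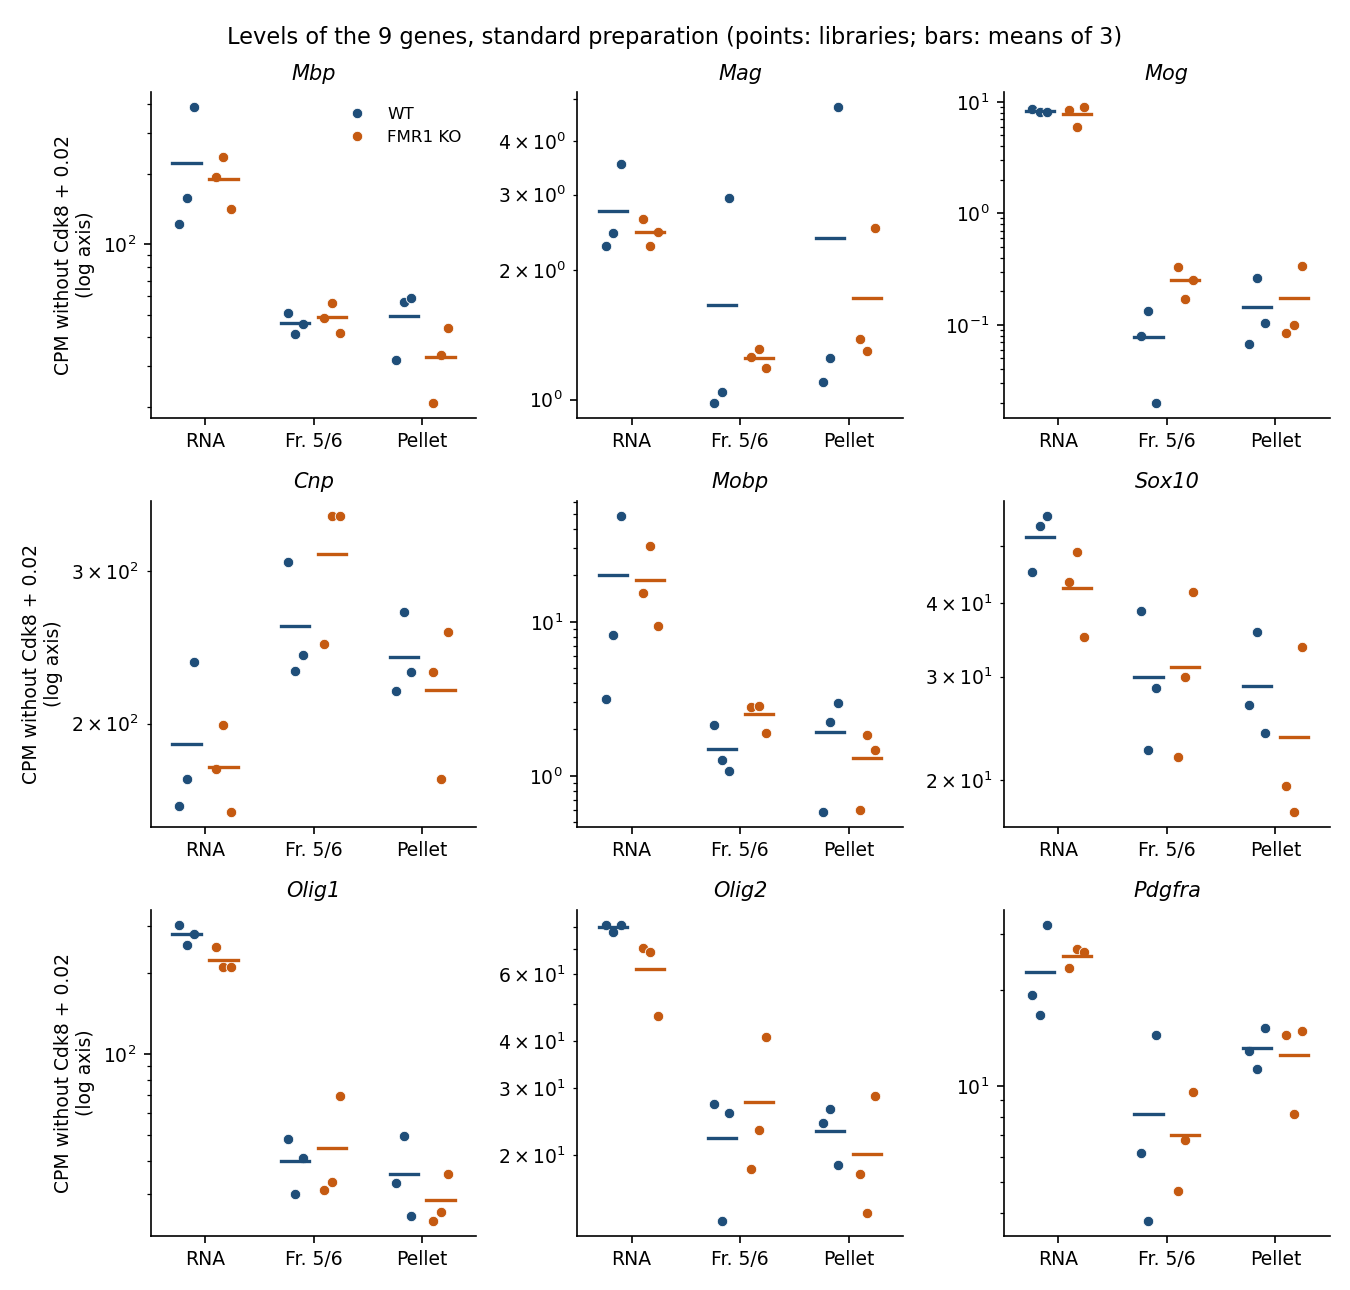
Level of each of the 9 genes in the 18 libraries of the standard preparation, as CPM without Cdk8 plus 0.02 on a log axis, for RNA-seq, fraction 5/6 and pellet. Each point is a library, blue for WT and orange for FMR1 KO, and each bar is the mean of 3. On this scale Mbp, Mog, Mobp, Olig1, Olig2 and Pdgfra in RNA-seq lie above every RPF library. Only Cnp has RPF means above the RNA means in both genotypes.

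Among the myelin genes, Cnp rose and Mog fell in pellet RPFs against RNA-seq in both genotypes. Cnp encodes an enzyme of the non-compact myelin of oligodendrocytes (2',3'-cyclic nucleotide 3'-phosphodiesterase) and lies on chr11:100574904-100591729 (GRCm38, plus strand). In the standard RNA-seq libraries Cnp lay at 160, 172 and 236 CPM in WT and at 177, 199 and 158 CPM in FMR1 KO. Pellet RPFs held 218, 270 and 229 CPM in WT and 229, 172 and 255 CPM in FMR1 KO, and fraction 5/6 held 307, 230 and 240 CPM in WT and 247, 348 and 348 CPM in FMR1 KO. On this scale the pellet and RNA-seq libraries overlapped in both genotypes, and fraction 5/6 lay above RNA-seq in FMR1 KO. After normalization by the trimmed mean of M-values (TMM), the log2 fold change of pellet against RNA-seq was 1.49 (SE 0.16, adjusted p = 0.00013) in WT and 1.39 (SE 0.14, adjusted p = 0.000132) in FMR1 KO by the quasi-likelihood test of edgeR, adjusted over all genes by the Benjamini-Hochberg method. TMM sets the bulk of genes level: with library size alone as the scale, the median over all genes moved from -0.10 to -1.25 in WT and from -0.07 to -1.16 in FMR1 KO, and the value of Cnp moved to 0.34 (adjusted p = 0.127) and 0.30 (adjusted p = 0.283), above those medians but no longer past the threshold. The rise of Cnp is therefore relative to the other genes of the same libraries. In fraction 5/6 the values against RNA-seq were 1.73 (SE 0.23, adjusted p = 0.000862) in WT and 1.74 (SE 0.19, adjusted p = 0.000161) in FMR1 KO. With library size alone these were 0.45 (adjusted p = 0.23), no longer past the threshold, and 0.83 (adjusted p = 0.0206). Without WT fraction 5/6 replicate 3 the WT value was 1.78 and still past the threshold. Exons of Cnp share 154 of 3639 nt (4.23%) with the antisense gene Dnajc7, and whether the counting used strand is not given in the sources used here.

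Mog encodes a glycoprotein on the outer face of the myelin sheath and lies on chr17:37010743-37023398 (GRCm38, minus strand). RNA-seq held 8.67, 8.13 and 8.02 CPM in WT and 8.44, 5.95 and 8.99 CPM in FMR1 KO, from 728 to 1243 counts in a library. The standard pellet libraries held 1, 3 and 1 counts in WT and 1, 1 and 4 in FMR1 KO, and those of fraction 5/6 held 1, 1 and 0 in WT and 3, 2 and 1 in FMR1 KO. The library without a count allows a level of up to 0.244 CPM (3 counts). RNA-seq and RPF libraries did not overlap. Scaled by TMM rather than as CPM, and summed over libraries, the RNA level was 33.6 times that of the pellet in WT (95% exact interval 14.4 to 104, from 5 pellet counts). In FMR1 KO it was 24.9 times that of the pellet (11.4 to 67.9, from 6 counts). The intervals cover counting error only. The fitted log2 fold change was -5.05 (SE 0.40, adjusted p = 3.14e-05) in WT and -4.61 (SE 0.43, adjusted p = 9.99e-05) in FMR1 KO, and fraction 5/6 against RNA-seq gave -6.06 (SE 0.52, adjusted p = 0.00018; -5.5 without WT fraction 5/6 replicate 3) and -4.12 (SE 0.38, adjusted p = 7.02e-05). Between pellet and fraction 5/6, Mog was too sparse to pass the filter on low counts in either genotype. The ratio of the summed levels, scaled by TMM, was 2.19 in WT (0.359 to 23.0) and 0.794 in FMR1 KO (0.212 to 2.97). Without WT fraction 5/6 replicate 3, chosen after seeing the data, the WT ratio was 1.40. That ratio was scaled by library totals without Cdk8, so 2.19 and 1.40 also differ in scale. A difference between these fractions was not detectable at this depth.

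Mbp and Mobp encode basic proteins of the compact myelin, Mbp on chromosome 18 and Mobp on chr9:120149707-120181484 (GRCm38, plus strand). In RNA-seq Mbp lay at 123, 159 and 389 CPM in WT and at 196, 236 and 142 CPM in FMR1 KO. In the pellet it lay at 31.9, 56.8 and 58.8 CPM in WT and at 20.9, 33.6 and 43.7 CPM in FMR1 KO, below every RNA-seq library of its genotype. In fraction 5/6 it lay at 50.8, 41.2 and 45.7 CPM in WT and at 48.2, 56.1 and 41.8 CPM in FMR1 KO, and these too were below every RNA-seq library. Pellet against RNA-seq, Mbp fell by 1.42 on the log2 scale in FMR1 KO (SE 0.34, adjusted p = 0.0083), and the value in WT was -1.02 (SE 0.44, adjusted p = 0.0736). The WT value passed the threshold by DESeq2 (-0.98, adjusted p = 0.0238), with all 12 groups in 1 fit (-1.11, adjusted p = 0.0251), with library size alone (-2.19, adjusted p = 0.00219) and without WT RNA-seq replicate 1 (-1.30, adjusted p = 0.0368). In RNA-seq, Mobp lay at 3.14, 8.13 and 48.7 CPM in WT and at 15.2, 31.1 and 9.35 CPM in FMR1 KO, a wide spread between preparations of 1 genotype. Its pellet libraries held 0.564, 2.21 and 2.94 CPM in WT and 0.584, 1.83 and 1.44 CPM in FMR1 KO, and did not overlap with RNA-seq. The log2 fold change was -2.75 (SE 0.65, adjusted p = 0.00823) in FMR1 KO and -2.29 (SE 1.08, adjusted p = 0.0985) in WT, where it was called with all 12 groups in 1 fit (adjusted p = 0.0171), with library size alone (adjusted p = 0.0165) and without RNA-seq replicate 1 (-2.78, adjusted p = 0.0378). Fraction 5/6 held 1.06 to 2.11 CPM of Mobp in WT and 1.87 to 2.80 CPM in FMR1 KO. Against RNA-seq, fraction 5/6 gave -1.0 for Mbp (SE 0.30, adjusted p = 0.0199) and -1.87 for Mobp (SE 0.54, adjusted p = 0.0173) in FMR1 KO, and -0.99 (SE 0.41, adjusted p = 0.081) and -2.47 (SE 1.04, adjusted p = 0.0817) in WT. The FMR1 KO calls rested on single libraries: that of Mbp was lost without RNA-seq replicate 1 (adjusted p = 0.0527) or 2 (adjusted p = 0.0759), and that of Mobp without fraction 5/6 replicate 2 (adjusted p = 0.0554). In WT both genes passed the threshold by DESeq2 (adjusted p = 0.0406 and 0.00805) and, by edgeR, without RNA-seq replicate 1 (adjusted p = 0.0404 and 0.0276).

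Reads of RNA-seq can fall anywhere in a mature mRNA while RPFs fall mostly in its coding sequence, and the genes differ in how much of their exons is coding. In the GENCODE M21 annotation 8.0% of the exonic bases of Mobp and 13.9% of those of Mbp are coding, whereas the other 7 genes have 33.8% (Pdgfra) to 46.9% (Mag), beside a median of 37.2% over 16568 protein-coding genes. Cnp has 34.6% and Mog has 43.5%. The part of the coding share in the values of Mbp, Mobp, Cnp, Mog or any other of these genes was not tested.

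Mag encodes an adhesion molecule of the membrane next to the axon and lies on chr7:30899176-30914873 (GRCm38, minus strand). It was low in all standard libraries. RNA-seq held 2.3, 2.4 and 3.5 CPM in WT and 2.6, 2.3 and 2.4 CPM in FMR1 KO. The pellet held 1.08, 1.23 and 4.78 CPM in WT and 1.36, 1.28 and 2.48 CPM in FMR1 KO, so that replicate 3 was the highest in both genotypes, above every RNA-seq library in WT and within their range in FMR1 KO. By edgeR no call was made in pellet against RNA-seq, with 0.94 in WT (SE 0.58, adjusted p = 0.191) and 0.57 in FMR1 KO (SE 0.25, adjusted p = 0.0805). In FMR1 KO Mag was called by DESeq2 (0.63, adjusted p = 0.0367) and by edgeR without pellet replicate 1 (0.70, adjusted p = 0.0481).

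Of the transcription factors, Olig1 and Olig2 encode related basic helix-loop-helix proteins that specify the lineage and lie near each other, Olig2 on chr16:91225457-91228677 and Olig1 on chr16:91269772-91271933 (GRCm38, plus strand). Olig1 fell furthest of the 3 factors in RPFs. In RNA-seq it lay at 303, 255 and 279 CPM in WT and at 251, 211 and 210 CPM in FMR1 KO. The pellet held 33.0, 49.2 and 24.7 CPM in WT and 23.8, 25.8 and 35.6 CPM in FMR1 KO, and fraction 5/6 held 48.1, 30.1 and 40.9 CPM in WT and 31.2, 33.1 and 69.8 CPM in FMR1 KO. No RPF library reached the level of any RNA-seq library. Pellet against RNA-seq, Olig1 fell by 1.84 on the log2 scale in WT (SE 0.20, adjusted p = 0.000135) and by 1.87 in FMR1 KO (SE 0.18, adjusted p = 0.00011). In fraction 5/6 it fell by 1.57 (SE 0.15, adjusted p = 0.000238) and by 1.49 (SE 0.16, adjusted p = 0.00016).

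Olig2 lay at 81.0, 77.9 and 81.1 CPM in WT RNA-seq and at 70.5, 68.9 and 46.5 CPM in FMR1 KO. Its pellet libraries held 24.3, 26.5 and 18.8 CPM in WT and 17.8, 14.0 and 28.6 CPM in FMR1 KO, below every RNA-seq library. The log2 fold change of pellet against RNA-seq was -0.64 in WT (SE 0.11, adjusted p = 0.00189) and -0.55 in FMR1 KO (SE 0.23, adjusted p = 0.0692), and that of fraction 5/6 was -0.63 in WT (SE 0.15, adjusted p = 0.00949) and -0.33 in FMR1 KO (SE 0.20, adjusted p = 0.185). The FMR1 KO pellet value passed the threshold with all 12 groups in 1 fit (-0.60, adjusted p = 0.0265), with library size alone (-1.62, adjusted p = 0.00075) and without pellet replicate 3 (-0.80, adjusted p = 0.018) or RNA-seq replicate 3 (-0.72, adjusted p = 0.0194), and that of fraction 5/6 with library size alone (-1.17, adjusted p = 0.00635) and without RNA-seq replicate 3 (-0.48, adjusted p = 0.0319). Sox10, a high mobility group factor that drives myelin genes, lies on chr15:79154908-79165240 (GRCm38, minus strand). It lay at 45.2, 54.0 and 56.3 CPM in WT RNA-seq and at 26.8, 35.7 and 24.0 CPM in the WT pellet, and at 43.4, 48.8 and 35.0 CPM in FMR1 KO RNA-seq and 19.5, 17.6 and 33.7 CPM in the FMR1 KO pellet. After TMM the values were 0.30 in WT (SE 0.14, adjusted p = 0.0878) and 0.23 in FMR1 KO (SE 0.22, adjusted p = 0.365), and with library size alone they were -0.84 in both, so the direction for Sox10 turned with the scale. Fraction 5/6 against RNA-seq gave 0.46 in WT (SE 0.15, adjusted p = 0.0348) and 0.43 in FMR1 KO (SE 0.16, adjusted p = 0.0491), and -0.79 and -0.44 with library size alone. Both calls were near the threshold: leaving out 1 library ended that of WT in 5 of 6 cases and that of FMR1 KO in 4 of 6, and both were lost with all 12 groups in 1 fit (adjusted p = 0.299 and 0.304).

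Pdgfra encodes the receptor for platelet-derived growth factor that marks oligodendrocyte precursors, and lies on chr5:75152292-75198215 (GRCm38, plus strand). RNA-seq held 19.4, 16.7 and 32.1 CPM in WT and 23.4, 26.9 and 26.3 CPM in FMR1 KO. The pellet held 12.9, 11.3 and 15.2 CPM in WT and 14.4, 8.14 and 14.9 CPM in FMR1 KO. Fraction 5/6 held 6.14, 3.75 and 14.5 CPM in WT and 4.64, 6.75 and 9.57 CPM in FMR1 KO, and the highest of the WT values came from the library whose Fmr1 level went against its label. Pellet against RNA-seq, no call was made, with 0.38 in WT (SE 0.27, adjusted p = 0.236) and 0.04 in FMR1 KO (SE 0.13, adjusted p = 0.794), and with library size alone these values turned to -0.79 (adjusted p = 0.0221) and -1.03 (adjusted p = 0.0041). Without WT RNA-seq replicate 3 the WT value was 0.70 (adjusted p = 0.0316). Fraction 5/6 against RNA-seq, Pdgfra fell by 1.00 on the log2 scale in FMR1 KO (SE 0.15, adjusted p = 0.00077), a call lost with all 12 groups in 1 fit (adjusted p = 0.0602). The WT value was -0.26 (SE 0.43, adjusted p = 0.624) and became -0.93 (adjusted p = 0.0373) without WT fraction 5/6 replicate 3.

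In counts, 1 of the 9 genes was higher and 3 were lower in WT pellet RPFs than in RNA-seq, where 31.1% of all 16180 genes tested were higher and 34.2% were lower. The 9 genes had a median log2 fold change of -0.64, beside -0.10 over all genes. In FMR1 KO, 1 gene was higher and 4 were lower, where 31.8% of 16184 genes were higher and 35.2% were lower, and the median was -0.55 beside -0.07. With 9 genes, the counts of lower genes are near the shares over all genes and are no result about this lineage. For fraction 5/6 against RNA-seq, 2 genes were higher and 3 lower in WT (55.9% of 16213 genes called in either direction), and 2 were higher and 5 lower in FMR1 KO (62.8% of 16172). The comparisons of pellet and of fraction 5/6 share the RNA-seq libraries. With library size alone, the split over all genes in WT pellet against RNA-seq went from 5031 higher and 5540 lower to 1421 higher and 10938 lower. On that scale Cnp was no longer called in WT, and Mbp, Mobp, Sox10 and Pdgfra were called lower as well.

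**Figure D2:**
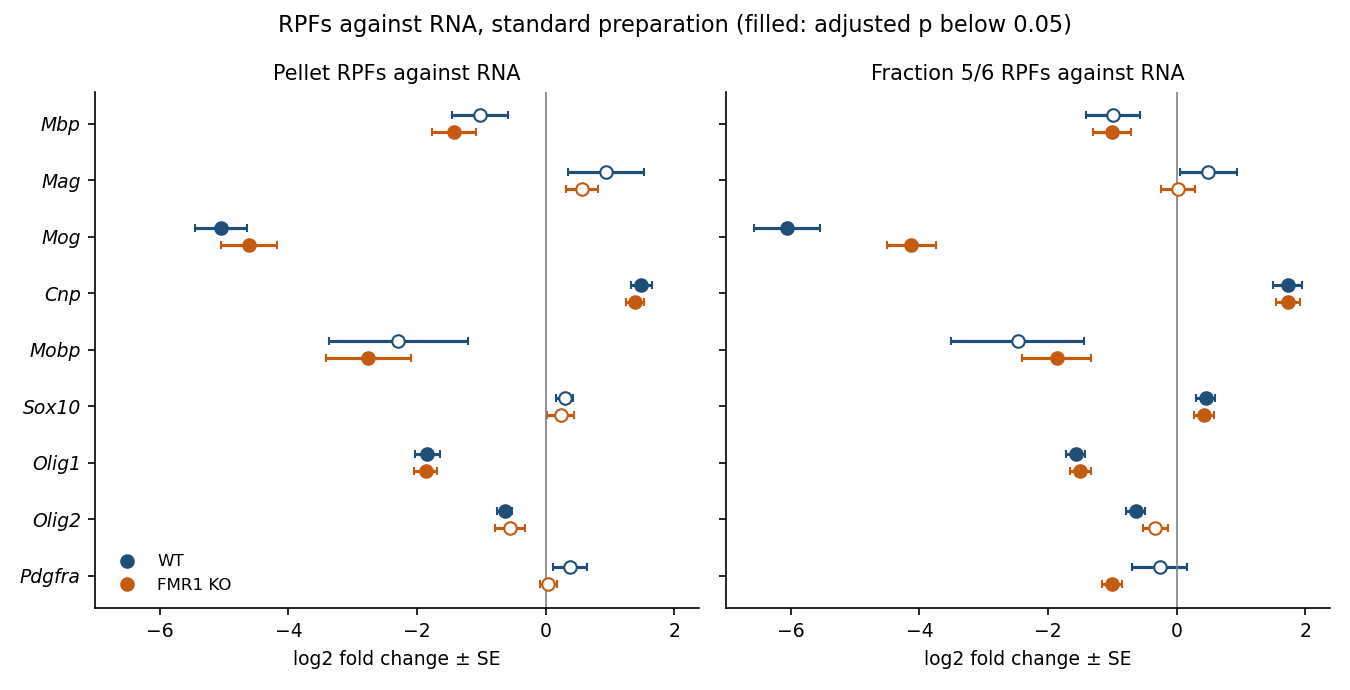
Log2 fold change of pellet RPFs (left) and fraction 5/6 RPFs (right) against RNA-seq in the standard preparation, with bars of 1 SE, for WT (blue) and FMR1 KO (orange), 3 libraries a group. Filled points have an adjusted p below 0.05. Cnp lies to the right and Mog and Olig1 lie to the left in all 4 comparisons.

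The make-up of the 9 genes does not depend on how libraries are scaled, since each gene is set against the others of the same library. Cnp held 20.8% to 22.9% of the counts of the 9 genes in WT RNA-seq and 22.5% to 24.7% in FMR1 KO RNA-seq. In the pellet it held 59.5% to 62.6% in WT and 61.4% to 70.0% in FMR1 KO, and in fraction 5/6 it held 60.1% to 67.0% and 62.7% to 69.4%. Every RPF library lay above every RNA-seq library. The share of Olig1 went the other way, from 24.6% to 40.7% in WT RNA-seq and 25.4% to 32.9% in FMR1 KO RNA-seq to 6.53% to 10.9% in the WT pellet and 7.27% to 9.38% in the FMR1 KO pellet. Mbp held 16.4% to 34.3% in WT RNA-seq and 9.13% to 15.5% in the WT pellet. In low nuclease RPFs, the share of Cnp was 42.6% to 58.1%, against 18.2% to 34.1% in low nuclease RNA-seq.

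**Figure D3:**
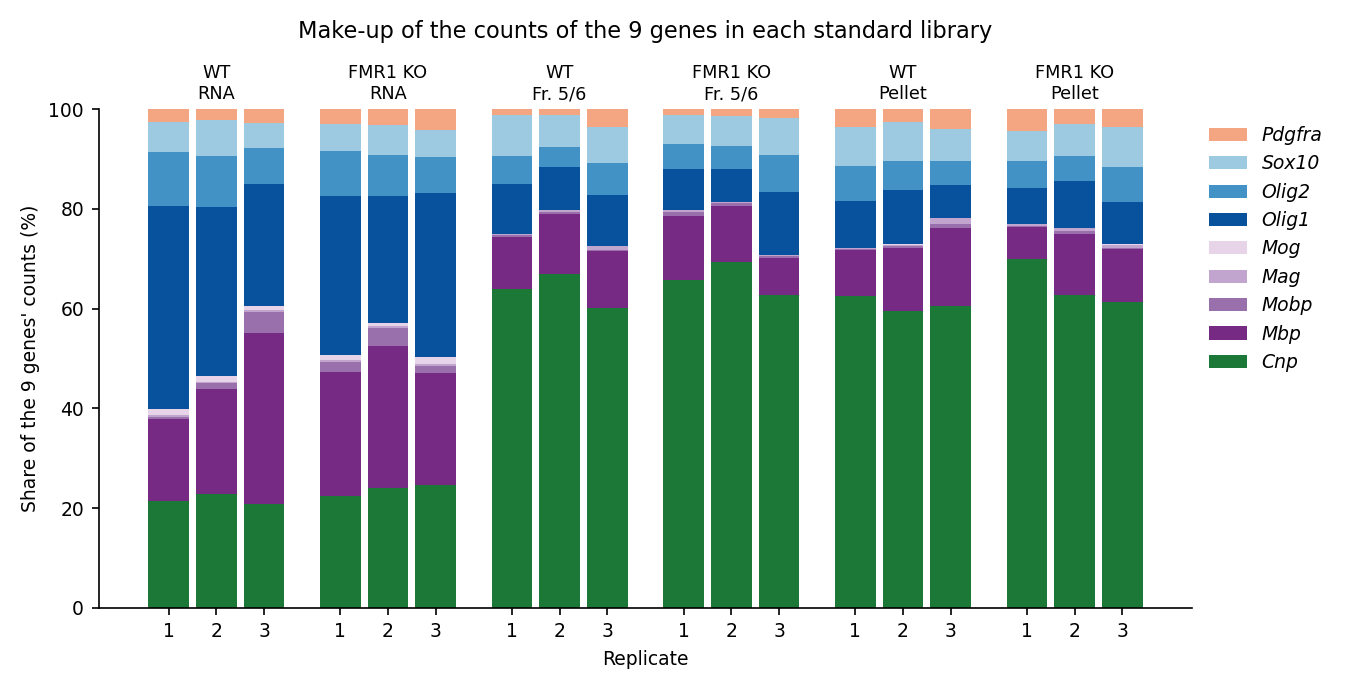
Share of the counts of the 9 genes that each gene took, in percent, in each of the 18 standard libraries, grouped by library type and genotype. Each bar is a library and sums to 100. The green share of Cnp is 20.8% to 24.7% in RNA-seq and 59.5% to 70.0% in RPFs, and the dark blue share of Olig1 is smaller in every RPF library than in any RNA-seq library.

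Few calls were made between pellet and fraction 5/6 in the standard preparation. In WT none of the 8 genes tested was called by edgeR's quasi-likelihood test, where 0.0152% of 13128 genes were higher in the pellet (2 genes) and 0.00762% were lower (1 gene), and none of the 8 had an unadjusted p under 0.05 or a call by DESeq2. The values ranged from -0.16 for Olig1 (SE 0.20, adjusted p = 0.764) to 0.76 for Pdgfra (SE 0.43, adjusted p = 0.64), with 0.09 for Mbp (SE 0.27, adjusted p = 0.911) and -0.13 for Cnp (SE 0.18, adjusted p = 0.793). Without WT fraction 5/6 replicate 3, 1024 genes were higher and 234 were lower of 13350 tested, and Pdgfra was 1.38 higher on the log2 scale (adjusted p = 0.0313). In FMR1 KO, Pdgfra was the 1 gene of 8 that was called, 1.20 higher in the pellet (SE 0.18, adjusted p = 0.00924), where 10.1% of 13326 genes were higher and 1.40% were lower. Of its pellet libraries, 14.4 and 14.9 CPM lay above all 3 of fraction 5/6 and 8.14 CPM lay within their range. The call was lost without FMR1 KO pellet replicate 1 (adjusted p = 0.06), with library size alone (adjusted p = 0.274) and with all 12 groups in 1 fit (adjusted p = 0.173). The other 7 genes ranged from -0.69 for Mobp (SE 0.56, adjusted p = 0.445) to 0.71 for Mag (SE 0.33, adjusted p = 0.21), with -0.26 for Mbp (SE 0.37, adjusted p = 0.67).

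Pdgfra is also made by cells other than precursors. The markers below describe other cell types of the brain and are not given as sources of Pdgfra. Of the 4 markers of endothelium, 3 could be tested in FMR1 KO pellet against fraction 5/6 and none was called (median 0.73), and the 4 summed to 4.28 to 8.46 CPM in the pellet and 3.27 to 5.15 CPM in fraction 5/6. Of 6 markers of astrocytes and radial glia, 2 were higher in the pellet (median 0.57). The part of other cells in the value of Pdgfra was not tested.

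In the low nuclease preparation, the comparisons with RNA-seq rest on the libraries in which 10 genes took most counts. The calls below were made after TMM, and with library size alone as the scale none was made in either genotype. In WT, 1 gene was higher and 3 were lower in the pellet than in RNA-seq (52.1% of 15553 genes called in either direction). Cnp was 0.93 higher (SE 0.17, adjusted p = 0.00335), Mog was 1.40 lower (adjusted p = 0.00435), with a log2 fold change of -1.40 (SE 0.27), and Mobp and Olig1 gave -1.78 (SE 0.39, adjusted p = 0.00718) and -1.18 (SE 0.36, adjusted p = 0.0276). Without RNA-seq replicate 2, the same 4 genes and Mbp were called, whereas the call of Olig1 was lost without any of the other 5 libraries (adjusted p = 0.0554 to 0.0829). In FMR1 KO, Cnp was higher (1.22, SE 0.22, adjusted p = 0.00888) and Mog was lower (-1.62, SE 0.36, adjusted p = 0.0171; lost without pellet replicate 1 or 3, adjusted p = 0.0596 and 0.0845), where 28.9% of 15247 genes were called in either direction. Without RNA-seq replicates 2 and 3, which left 1 RNA-seq library that was assumed to vary like the pellet libraries, Cnp and Mog were again called and Olig1 gave -1.40 (adjusted p = 0.0131). Without RNA-seq replicate 3 alone, Pdgfra gave -1.22 (adjusted p = 0.0445), beside -0.92 (SE 0.44, adjusted p = 0.146) with it. Mog was better covered here than in the standard RPFs, with 42, 119 and 86 counts in the WT pellet and 50, 72 and 55 in the FMR1 KO pellet. Scaled by TMM, its RNA level was 2.48 times that of the pellet in WT (95% exact interval 2.17 to 2.84) and 3.63 times in FMR1 KO (3.10 to 4.28). Without the RNA-seq libraries led by 10 genes, chosen after seeing the data, it was 3.52 times (3.08 to 4.03) and 5.12 times (4.36 to 6.04). These later ratios were scaled by library totals without Cdk8, so the change mixes the omitted libraries with the scale. All of these intervals lie below those of the standard preparation, which were scaled by TMM. The preparations differ in MgCl2, in the source, amount and temperature of the nuclease and in how monosomes were recovered, which cannot be told apart.

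Pellet against fraction 5/6 in the low nuclease preparation does not rest on RNA-seq. In WT, Mag and Pdgfra were higher and Cnp was lower (22.9% of 15569 genes called in either direction). Pdgfra lay at 45.0, 42.9 and 63.4 CPM in the WT pellet and at 13.7, 20.6 and 18.5 CPM in WT fraction 5/6, which did not overlap, and was 1.64 higher on the log2 scale (SE 0.21, adjusted p = 0.00894). Mag lay at 7.0, 5.3 and 17 CPM in the pellet and at 2.3, 3.2 and 3.6 CPM in fraction 5/6, and was 1.79 higher (SE 0.46, adjusted p = 0.039). Cnp lay at 264, 251 and 264 CPM in the pellet and at 374, 358 and 421 CPM in fraction 5/6, with a log2 fold change of -0.45 (SE 0.13, adjusted p = 0.0479). In FMR1 KO the 3 transcription factors were lower in the pellet and no other of the 9 genes was called (20.0% of 15561 genes called in either direction). Olig1 lay at 47.9, 60.0 and 59.3 CPM in the FMR1 KO pellet and at 99.2, 116 and 101 CPM in fraction 5/6, a log2 fold change of -0.73 (SE 0.10, adjusted p = 0.0123), and Olig2 and Sox10 gave -0.43 (SE 0.09, adjusted p = 0.0297) and -0.39 (SE 0.10, adjusted p = 0.0426). Pdgfra in FMR1 KO lay at 16.0, 40.7 and 29.3 CPM in the pellet and at 75.4, 15.9 and 16.5 CPM in fraction 5/6, where replicate 1 stood apart, and gave -0.20 (SE 0.72, adjusted p = 0.873). Of these 6 calls, that of Pdgfra in WT held under every alternative run (highest adjusted p = 0.033), and the other 5 were lost with all 12 groups in 1 fit. The calls of Cnp in WT and of Sox10 in FMR1 KO were lost whichever library was left out (adjusted p = 0.0654 to 0.145 and 0.0682 to 0.128), that of Mag in WT in 4 of 6 cases, that of Olig2 in FMR1 KO in 5 of 6 and that of Olig1 in FMR1 KO in 1 of 6. Whether WT and FMR1 KO differ in this comparison was not tested.

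**Figure D4:**
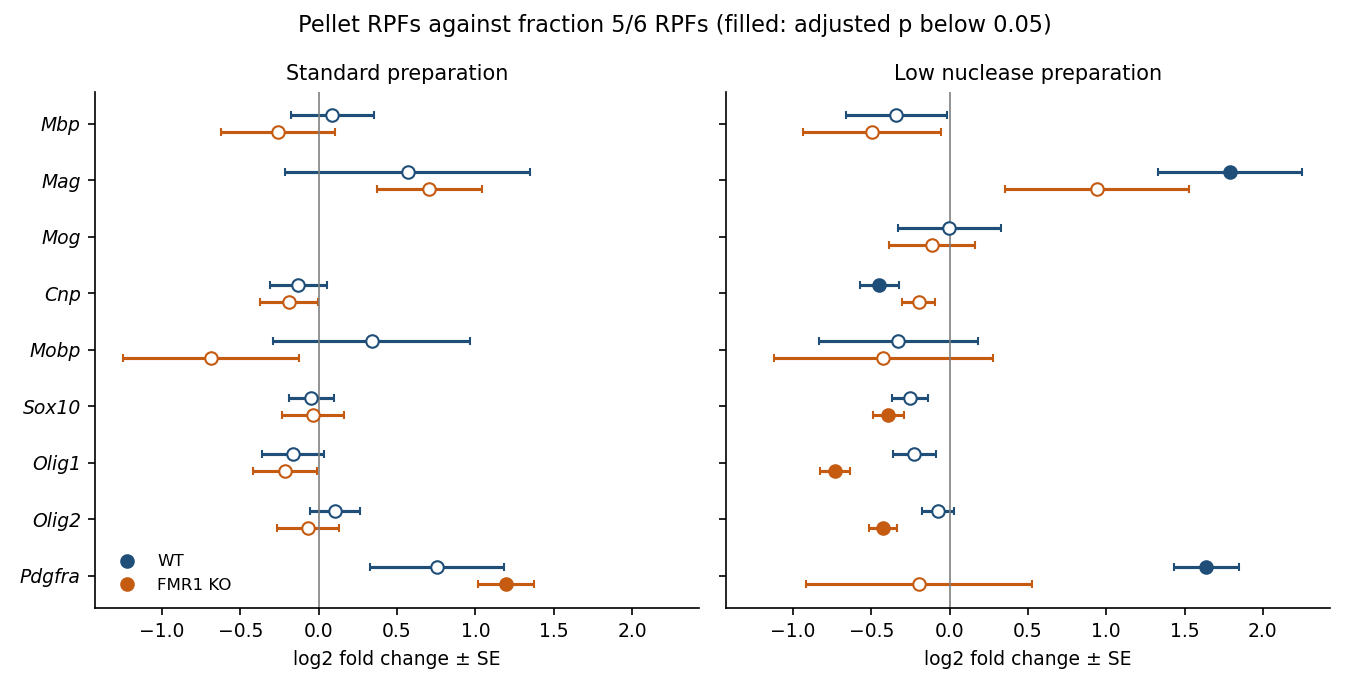
Log2 fold change of pellet RPFs against fraction 5/6 RPFs in the standard (left) and low nuclease (right) preparations, with bars of 1 SE, for WT (blue) and FMR1 KO (orange), 3 libraries a group. Filled points have an adjusted p below 0.05, and Mog was too sparse to be tested on the left. Pdgfra lies at 0.76 and 1.20 on the left, and at 1.64 in WT and -0.20 in FMR1 KO on the right.

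The genotypes were then compared. Fmr1 was 3.72 lower on the log2 scale in FMR1 KO pellet RPFs (adjusted p = 0.00598), a fold change of -3.72 (SE 0.18), and gave -1.90 (SE 0.10, adjusted p = 3.64e-05) in RNA-seq. The pellet call was lost without WT pellet replicate 2 (adjusted p = 0.0525), and that of RNA-seq with all 12 groups in 1 fit (adjusted p = 1). In fraction 5/6 Fmr1 was not called by edgeR (-3.27, SE 1.08, adjusted p = 0.833), but it was by DESeq2 (adjusted p = 0.0239), with all 12 groups in 1 fit (adjusted p = 0.00585) and without WT replicate 3 (-3.83, adjusted p = 0.00131). None of the 9 genes was called between FMR1 KO and WT. In the pellet 8 genes were tested (0.0152% of 13163 genes called in either direction), with values from -0.52 for Mbp (SE 0.37, adjusted p = 0.923) to -0.08 for Pdgfra (SE 0.20, adjusted p = 0.996), a median of -0.26 beside -0.00 over all genes and no unadjusted p under 0.05. All 8 values lay below 0, also with library size alone and by DESeq2. They were read in the same pellet libraries, so a shared sign is not 8 separate observations. The summed level of Mog, which was too sparse to test, went the other way. Scaled by TMM, it was 1.36 times as high in FMR1 KO (95% exact interval 0.346 to 5.64). In fraction 5/6 none of 8 was called (0% of 13101 genes), with values from -0.59 for Mag (SE 0.50) to 0.58 for Mobp (SE 0.42). Mag lay at 2.93 CPM in the library labelled WT replicate 3, and at 0.963 and 1.02 CPM in the other WT libraries. It lay at 1.17 to 1.29 CPM in FMR1 KO, above those other WT libraries, so the direction for Mag rests on the library labelled WT replicate 3. In RNA-seq none of 9 was called (0.0736% of 16313 genes), and 1 had an unadjusted p under 0.05, Olig1 with -0.29 (SE 0.11, adjusted p = 0.999). DESeq2 called none of them in any of the 3 comparisons. Leaving out the library labelled WT fraction 5/6 standard replicate 3 brought no call of any of the 9 genes between the genotypes.

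The interaction of genotype with library type asks whether pellet against RNA-seq differs between FMR1 KO and WT. Of the 9 genes none was called (0.0670% of 16417 genes), and values ran from -0.43 for Mobp (SE 1.45) to 0.47 for Mog (SE 0.77). Cnp gave -0.06 (SE 0.21, adjusted p = 0.996), Olig1 gave 0.01 (SE 0.28) and Mbp gave -0.37 (SE 0.62, adjusted p = 0.981). For pellet against fraction 5/6 none of 8 was called (0% of 13740 genes), from -1.03 for Mobp (SE 0.91, adjusted p = 0.903) to 0.41 for Pdgfra (SE 0.48, adjusted p = 0.911). Without WT fraction 5/6 replicate 3 none was called either, and Pdgfra gave -0.20 (adjusted p = 0.964). No member had an unadjusted p under 0.05 or a call by DESeq2 in either interaction. The SEs of Mobp, Mog and Mag (0.70) are wide, which limits what could be seen in these genes.

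Other genes of the lineage were read from a list of 28, of which 27 were in the table. In WT pellet against RNA-seq, 4 were higher and 9 were lower of 27 tested (median -0.43), and in FMR1 KO 5 were higher and 12 were lower (median -0.61). Over all genes 31.1% were higher and 34.2% lower in WT, and 31.8% and 35.2% in FMR1 KO, so the share of the list that was lower in WT is that of all genes. In both genotypes the sulfotransferase gene Gal3st1, which makes the myelin lipid sulfatide, was lower (-4.05, SE 0.22, adjusted p = 8.75e-06 in WT, and -5.76, SE 0.26, adjusted p = 9.17e-06 in FMR1 KO). The transcription factor gene Nkx6-2 was lower as well (-3.07, SE 0.44, adjusted p = 0.000564, and -2.69, SE 0.28, adjusted p = 0.00017). C1ql1 was among the 3 largest falls in WT (-3.49, SE 0.33, adjusted p = 7.24e-05) and Mal, a proteolipid gene, in FMR1 KO (-3.20, SE 0.95, adjusted p = 0.0211). Mal is sparse in RPFs, at 0 to 0.0648 CPM in the FMR1 KO pellet and 0.376 to 0.679 CPM in RNA-seq, and its call was lost without pellet replicate 2 (adjusted p = 0.0522) or 3 (adjusted p = 0.0709). Aspa, which encodes the enzyme that splits N-acetylaspartate, was higher in both (2.28, SE 0.37, adjusted p = 0.00115, and 2.28, SE 0.23, adjusted p = 0.000136). Cspg4, the NG2 proteoglycan of precursors, was higher too (1.31, SE 0.22, adjusted p = 0.00121, and 1.62, SE 0.17, adjusted p = 0.000185), and Ermn, a cytoskeletal gene of myelinating cells, was higher in FMR1 KO (1.27, SE 0.24, adjusted p = 0.0032). With library size alone, Cspg4 gave 0.15 in WT (adjusted p = 0.525) and 0.55 in FMR1 KO (adjusted p = 0.114), and Ermn gave 0.17 (adjusted p = 0.618). The rise of Neu4 in WT (4.37, SE 1.34, adjusted p = 0.0224) came from 1 pellet library at 95.3 CPM beside 2.78 and 3.19 CPM in the other two, and it was 0.77 (adjusted p = 0.099) without that library.

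The counts of the smaller groups are to be read against the same shares over all genes. None of the 5 transcription factor genes was higher in either genotype, and 2 were lower in WT and 4 in FMR1 KO (medians -0.68 and -1.25). Of 9 genes of the myelin membrane and its junctions, 3 were lower in WT and 4 in FMR1 KO, with 0 and 1 higher. Of 6 genes of lipids and metabolism, 2 were higher and 2 lower in each genotype, and the same counts held for the 7 genes of precursors and newly formed cells. Markers of other cells in WT pellet against RNA-seq were 4 of 6 higher and 0 lower for astrocytes and radial glia (median 1.05), 5 of 7 higher and 0 lower for neurons (median 0.72), 2 higher and 2 lower of 6 for microglia, and 0 higher and 2 lower of 4 for endothelium.

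Between pellet and fraction 5/6, 17 genes of the list could be tested in WT and none was called, and of 18 in FMR1 KO only Cspg4 was called (2.54, SE 0.31, adjusted p = 0.0043). Like Pdgfra, Cspg4 is a gene of precursors, but no other of the 7 listed genes of precursors and newly formed cells was called here. It lay at 3.59 to 7.69 CPM in the FMR1 KO pellet and at 0.934 to 1.36 CPM in FMR1 KO fraction 5/6, without overlap. In WT it lay at 4.33 to 6.12 CPM in the pellet, and in fraction 5/6 at 0.681 and 0.842 CPM in replicates 1 and 2 and at 8.78 CPM in the library labelled replicate 3.

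Peaks of RPF coverage along the mRNAs were deposited for each library of the standard preparation, with their height in reads. Of the 9 genes, Olig1 held 90 peaks over the 12 RPF libraries, Olig2 held 87, Cnp 79, Sox10 21 and Mbp 1, and no peak was listed on Mag, Mog, Mobp or Pdgfra. In the coding sequence lay 89 of the 90 peaks of Olig1, 81 of the 87 of Olig2 and all of those of Cnp, Sox10 and Mbp. The median height was 22.5 reads on Olig1, 16 on Cnp, 15 on Olig2 and 10 on Sox10. The pellet libraries held 6, 6 and 8 peaks on Olig1 in WT and 10, 7 and 7 in FMR1 KO, and 1, 4 and 7 peaks on Cnp in WT and 13, 12 and 6 in FMR1 KO. Heights were not scaled between libraries, so counts of peaks move with depth and are not compared between groups.

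When peaks whose middles lay within 6 nt were taken as 1 site, the 6 pellet libraries held 110 sites on these mRNAs. Of these, 79 (71.8%) were seen in 1 library, beside 70.1% of 111039 sites on all mRNAs, and 5 (4.55%) were seen in 3 or more, beside 9.23%. None was seen in all 6, beside 0.259% of the sites on all mRNAs. The sites in 3 or more pellet libraries lay on Olig1 and Olig2. The 4 of these in the coding sequence are shown with the codon under the middle of the peak in capitals and 12 nt to each side (GRCm38 with GENCODE M21, plus strand, 5′ to 3′), since the coding sites on these mRNAs that recurred in 3 or more pellet libraries are these 4.

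Olig1 codon 66: cgcgagaaggccGAAgctccgctcgct

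Olig1 codon 113: gacctgaacttgGCCatggacgcgctg

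Olig2 codon 116: aagatcaacagcCGCgaacgcaagcgc

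Olig2 codon 166: ctcaccaactcgCTGgaggagatgaag

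They lie on chr16:91270060-91270086, chr16:91270201-91270227, chr16:91226733-91226759 and chr16:91226883-91226909. Olig2 codon 116 was seen in 4 pellet libraries, 2 of each genotype, at heights of 9 to 43 reads, and in 2 FMR1 KO libraries of fraction 5/6. The other 3 sites were each seen in 2 WT pellet libraries and 1 FMR1 KO pellet library, and a site 7 nt before the start codon of Olig2 was found in the same number. Olig2 codon 166 had no peak in fraction 5/6. G and C made up 70.4% and 63.0% of the windows of Olig1, beside 68.5% of its coding sequence, and 59.3% and 55.6% of those of Olig2, beside 69.7%.

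The highest peak of Olig1 kept near codon 113. In the pellet it lay 357, 336 and 340 nt after the start codon in WT and 337, 326 and 327 nt after it in FMR1 KO, with heights of 62, 58, 30, 31, 42 and 44 reads. The 6 places span 31 nt, beside a median span of 493 nt over the 842 mRNAs that had at least 5 peaks in each pellet library. Of these, 50 (5.94%) were as narrow or narrower (8.5% of the 2611 with at least 1 peak). Spans were not adjusted for the length of the mRNA, which bounds them, and the coding sequence of Olig1 has 780 nt. Over all 12 RPF libraries, each had a peak between 316 and 357 nt, and in 10 of them it was the highest on Olig1. With fraction 5/6 included, the highest peaks spanned 320 nt, and 27.9% of the 420 mRNAs with at least 5 peaks in each library were as narrow or narrower (36.9% of the 1654 with at least 1), so over both fractions the span does not stand apart. The region was chosen after the peaks were seen. For Olig2 the highest pellet peaks spanned 535 nt and for Cnp 659 nt, beside a median of 410 nt over the 2611 mRNAs with a peak in each pellet library.

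**Figure D5:**
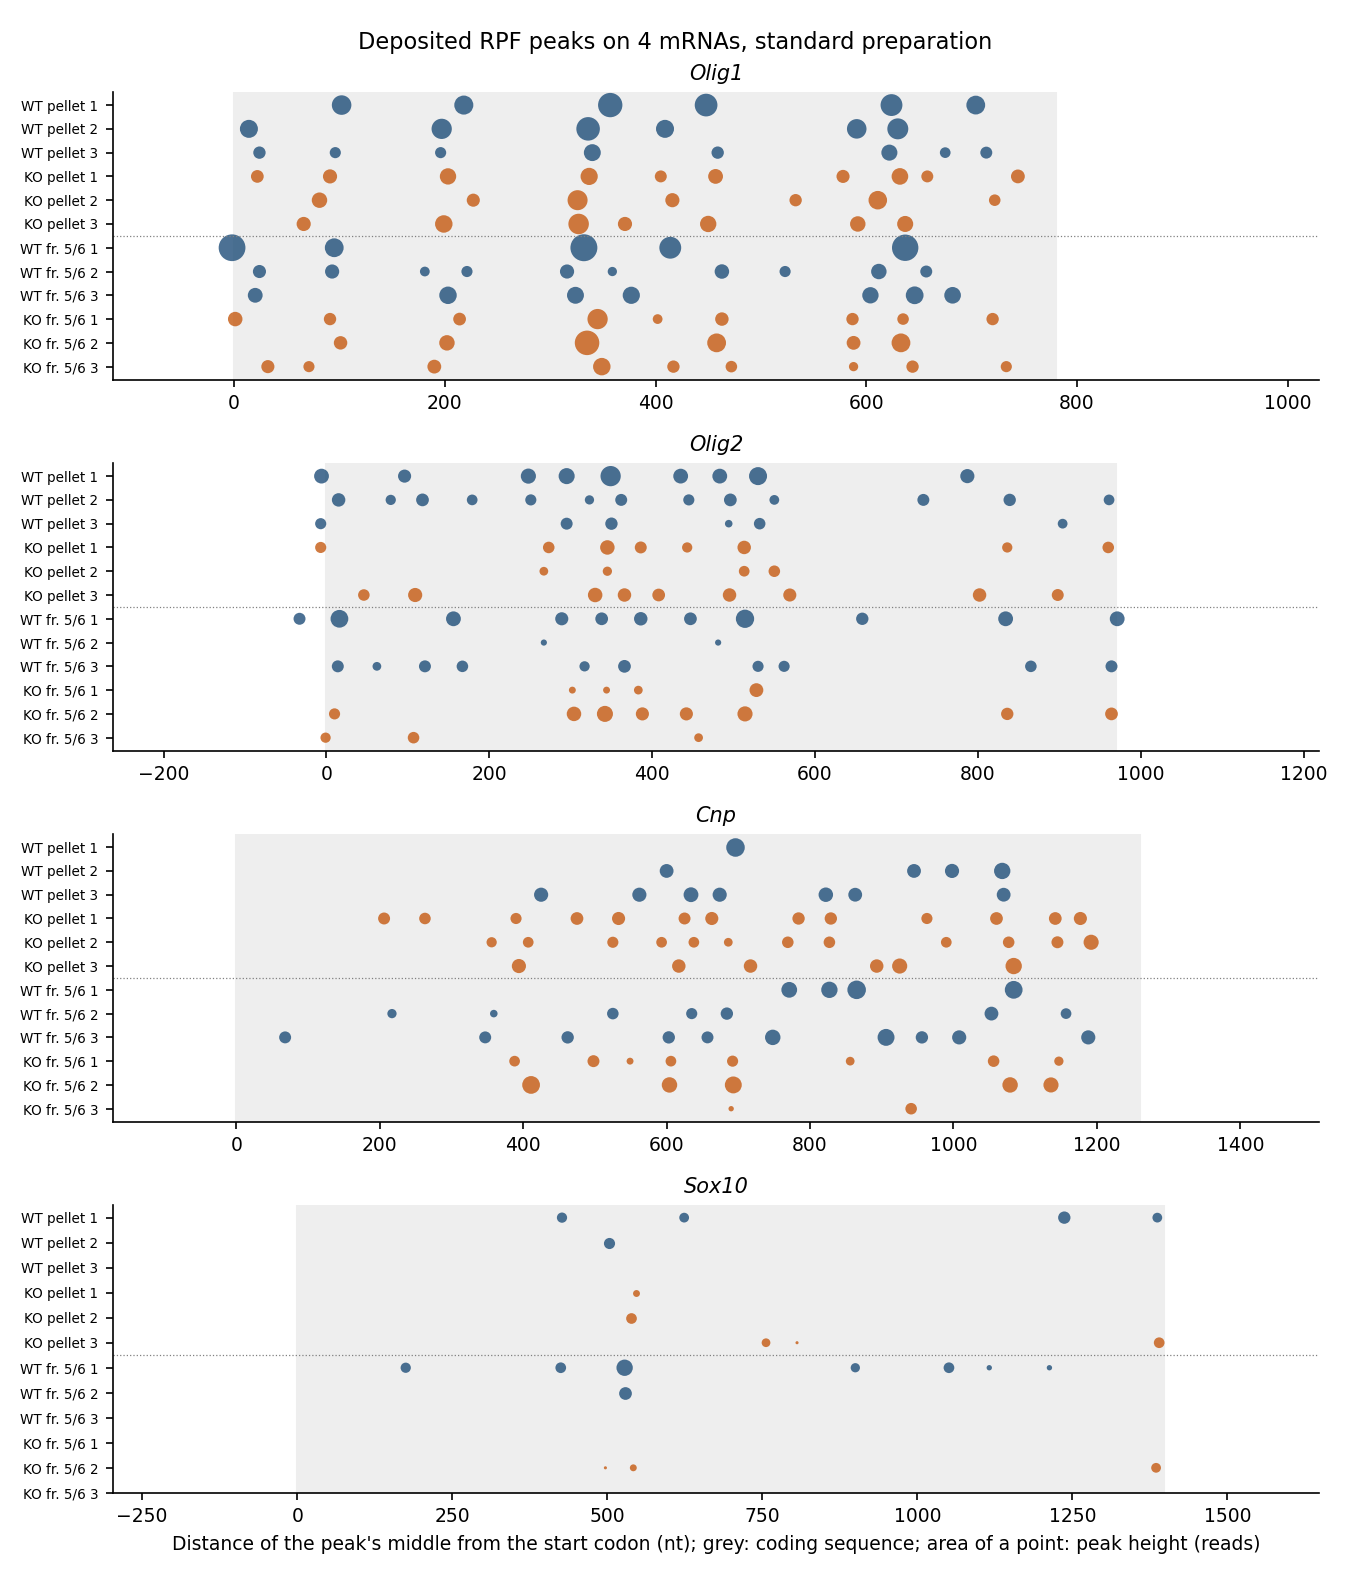
Deposited RPF peaks on the mRNAs of Olig1, Olig2, Cnp and Sox10 in the 12 standard RPF libraries, by the distance of the middle of a peak from the start codon in nt. Points are peaks, blue for WT and orange for FMR1 KO, with an area that grows with height in reads, and grey marks the coding sequence. On Olig1 every library has a peak between 316 and 357 nt, and Sox10 has few peaks.

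The gene whose level followed Mbp most closely over the 36 libraries was Mobp (Pearson r of log2 CPM 0.887), ahead of Pcp2 (0.837), Myrip (0.810), Fa2h (0.809) and Nhlh1 (0.805), among 16168 genes compared. Fa2h makes hydroxylated lipids of myelin, and Pcp2 is a gene of Purkinje cells. These values describe 36 libraries that differ in type, depth and composition and carry no test.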

How the data were processed

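RPFs of the pellet and of fraction 5/6 and RNA-seq of whole brain homogenate were measured in 36 libraries, 3 in each of 12 groups named by the labels. The authors made the counts, per the processing notes, with cutadapt 2.10, Bowtie2 2.3.5, STAR 2.7.8a on GRCm38, SAMtools 1.19.2, Picard and featureCounts 2.2.0, and deposited them as whole numbers without normalization. The deposited peak lists give the height of RPF coverage per library, a signal in reads not scaled between libraries. Per the methods, the highest point of a peak had to exceed the mean coverage of its transcript 4-fold.

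Protein-coding genes of GENCODE M21 were kept, without Cdk8, filtered with filterByExpr, normalized by TMM and tested with edgeR 4.0.16 (quasi-likelihood test) in R 4.3.3, in a fit of the compared groups only, with Benjamini-Hochberg adjustment over all genes tested and a threshold of 0.05. Of the 16614 genes of the table, 92 had no name. CPM and RPKM (union of exons) were computed from the counts, with a prior count of 2 for log values. Alternatives were DESeq2 1.42.0, library size alone, no filter, Cdk8 kept, all genes of the table, all 12 groups in 1 fit, the replicate number as a block and leaving out each library. Scripts were tested on simulated data. Peaks were handled with Python 3.11.15 and pandas 2.3.3, and exact intervals of 95% with scipy 1.17.1. Standard RPF libraries held 4284209 to 21274803 counts without Cdk8, and low nuclease RPF libraries 22378936 to 60377525, which limits the precision of genes at a few CPM.

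The 9 genes and the lists were chosen with earlier results of these data known. Named beside the 9 were Fmr1, the 3 largest rises and 3 largest falls of the lineage list past the threshold whose libraries did not overlap, and the 5 genes most like Mbp. Some items the rule or lists take in are not reported here.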

Additional observations from a re-analysis of the deposited data

How the results depend on the processing

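Over the comparisons and alternatives run, 1918 of the log2 fold changes of single genes kept their side of the threshold. Another 82 lost the call, 51 gained one and 7 turned direction with a call before or after. Changes of sign between uncalled values, as for Pdgfra in the interaction with fraction 5/6, are counted among the 1918 and not among the 7. Those 7 were with library size alone: Sox10 (-0.84) and Pdgfra (-0.79) in WT pellet against RNA-seq, Sox10 (-0.84) and Pdgfra (-1.03) in FMR1 KO pellet against RNA-seq, Sox10 (-0.79) in WT fraction 5/6 against RNA-seq, and Mag (-0.96) and Sox10 (-0.44) in FMR1 KO fraction 5/6 against RNA-seq. This setting has no step that levels the bulk of genes. The calls of Mog and Olig1 in standard pellet against RNA-seq held in both genotypes under all alternatives run (highest adjusted p 0.000853 and 0.00113), and that of Cnp under all but library size alone.

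The number of the 9 genes called in WT pellet against RNA-seq was 4, and 7, all of them lower, with library size alone. With library size alone it fell from 4 to 0 in WT pellet against RNA-seq and from 2 to 0 in FMR1 KO pellet against RNA-seq of the low nuclease preparation, and from 1 to 0 in FMR1 KO pellet against fraction 5/6. With all 12 groups in 1 fit it went from 3 to 1 in WT and from 3 to 0 in FMR1 KO pellet against fraction 5/6 (low nuclease), from 1 to 0 in FMR1 KO pellet against fraction 5/6 (standard), and from 2 to 4 in FMR1 KO pellet against RNA-seq (low nuclease). The cause was not tested. Leaving out 1 library at a time, the number ran from 0 to 1 in WT pellet against fraction 5/6 (1 without WT fraction 5/6 replicate 3), from 0 to 1 in FMR1 KO (0 without FMR1 KO pellet replicate 1), from 1 to 4 in FMR1 KO pellet against RNA-seq (low nuclease), from 1 to 2 in WT and from 0 to 2 in FMR1 KO pellet against fraction 5/6 (low nuclease). Leaving out FMR1 KO RNA-seq replicates 2 and 3 together, chosen after seeing the data, gave 3. In low nuclease pellet against RNA-seq, single omissions also brought calls of Mag (without WT pellet replicate 3), Pdgfra (without WT RNA-seq replicate 1) and Mobp and Olig2 (without FMR1 KO RNA-seq replicate 1), and DESeq2 called Mbp in WT and Mobp in FMR1 KO.

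Replicate numbers were not taken as pairs, because no comparison had every same-numbered pair of deviations correlated above 0.1 (range -0.12 to 0.36). With the replicate block the number called in WT pellet against RNA-seq was 7, with Mbp (-0.90), Mobp (-1.71) and Pdgfra (0.41) gained, and no other number of calls moved by over 1.5 times. In the low nuclease preparation the block brought calls of Mbp in pellet against fraction 5/6 (-0.32 in WT and -0.54 in FMR1 KO) and in WT pellet against RNA-seq (-0.68), of Mag there (-0.98) and of Mobp in FMR1 KO pellet against RNA-seq (-2.07), and ended those of Mog in FMR1 KO pellet against RNA-seq (adjusted p = 0.0561) and Cnp in WT pellet against fraction 5/6 (adjusted p = 0.0503). In the standard preparation it ended those of Sox10 in WT fraction 5/6 against RNA-seq (adjusted p = 0.0805), Neu4 in WT pellet against RNA-seq (adjusted p = 0.18) and Fmr1 in FMR1 KO against WT pellet (adjusted p = 0.249). Over all genes, DESeq2 called 10 higher and 80 lower in WT pellet against fraction 5/6 where edgeR called 2 and 1, and all 12 groups in 1 fit called 70 and 161. Of the 108 mean levels, 30 moved by over 1 SD with Cdk8 kept, 43 with TMM-scaled library sizes and 40 without the 50 genes of the highest share. No peak matching distance, height minimum or omitted library gave a site in all pellet libraries left. Depth limits Mog most, with 5 or 6 counts over the pellet libraries of a genotype.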
